A study of Homo sapiens with 4 samples.

Results

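The genes of the mitochondrial respiratory chain and of the ATP synthase were compared between A549 cells with and without knockdown of the long noncoding RNA USP2-AS1. The members were the protein-coding rows of the deposited table whose names begin with NDUF, SDHA to SDHD, UQCR, COX followed by a digit, ATP5, MT-ND, MT-CO, MT-CYB or MT-ATP. This rule took 37 of the 6828 listed genes. It found 27 subunits encoded in the nucleus, 6 subunits encoded in mitochondrial DNA and 4 assembly factors. The table lists only genes that had passed the adjusted p of the authors in this same comparison, so that every member was bound to differ between the groups. The direction and the size of the differences are therefore described below, and not the fact that a member differed. A gene that is not listed has an unknown value here.

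A549 is a human lung adenocarcinoma cell line. The shctrl group was infected with lentivirus carrying a control shRNA and the shUSP2-AS1 group with lentivirus carrying an shRNA against USP2-AS1, and RNA was taken 72 h later. Both groups carried the vector PLKO.1, and each had 2 libraries, described as biological replicates. The study used a pair of USP2-AS1 shRNAs without saying which was sequenced, and the comparison is of 1 cell line. The libraries held 12330115 and 10772788 reads of listed genes in shctrl and 11715962 and 14120472 in shUSP2-AS1. USP2-AS1 itself, on chromosome 11 from 119364359 to 119526664 in GRCh38, was covered by 24 and 22 reads in shctrl and by 2 and 7 reads in shUSP2-AS1. Its log2 fold change was -2.39 (SE 0.56, adjusted p = 0.000597, limma), in the direction of the labels.

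The respiratory chain is a row of protein complexes in the inner mitochondrial membrane. Complex I takes electrons from NADH and complex II takes them from succinate, an intermediate of the citric acid cycle. Coenzyme Q carries them to complex III, cytochrome c carries them on to complex IV, and complex IV hands them to oxygen. Complexes I, III and IV pump protons as they work, and the ATP synthase, or complex V, uses the returning protons to make ATP. Complexes I, III, IV and V each combine subunits made from nuclear genes with a few made from mitochondrial DNA, whereas complex II is wholly nuclear. Assembly factors help to build the complexes and are not part of the finished enzymes.

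Most of the 33 subunits among the members were slightly higher in shUSP2-AS1 cells, whereas the 4 assembly factors among them and the catalytic subunits of complex II were lower. Among the 37 members, 24 rose and 13 fell (limma, adjusted p below 0.05). The share that rose was 64.9%, against 50.6% higher and 49.4% lower among all 6812 genes tested. All of the 24 members that rose were subunits, and the 13 that fell were 9 subunits and 4 assembly factors. The nuclear subunits had 19 higher and 8 lower members with a median log2 fold change of 0.30, and the mitochondrially encoded subunits had 5 higher and 1 lower with a median of 0.21. The median over all genes tested was 0.19, but it was -0.16 where at least 10 reads were required in every library. With RLE scaling, the medians were 0.185 for the nuclear subunits, 0.088 for the mitochondrially encoded subunits and 0.069 for all genes tested. The differences were small in size. Of the members, 25 had an absolute log2 fold change under 0.5, and the median absolute log2 fold change was 0.36, against 0.69 over all genes tested. Only NDUFS1 and COX15 reached an absolute log2 fold change of 1, which was 5.41% of the members against 29.7% of the genes tested. The groups did not overlap in 37 of 37 members, and the share of all genes tested with groups apart was 100%, as the listing brings about. The number of members that rose differed between settings. With RLE scaling, which shifted the median of all genes by -0.118, 19 rose and 13 fell. The share of calls that were higher was then 59.4% in members, against 49.6% in all genes tested. With DESeq2, which changes both the scaling and the test, 16 rose and 13 fell, with 8 not called. That share was 55.2% in members with DESeq2, against 48.5% in all genes tested. COX10 reached -1.05 with RLE scaling and with DESeq2. Both took their scaling from the listed genes alone, which had been selected as different. This DESeq2 run is thus not that of the authors, which every listed gene had passed. With edgeR on the recovered reads, scaled by the authors' size factors, 24 rose and 13 fell.

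**Figure D1:**
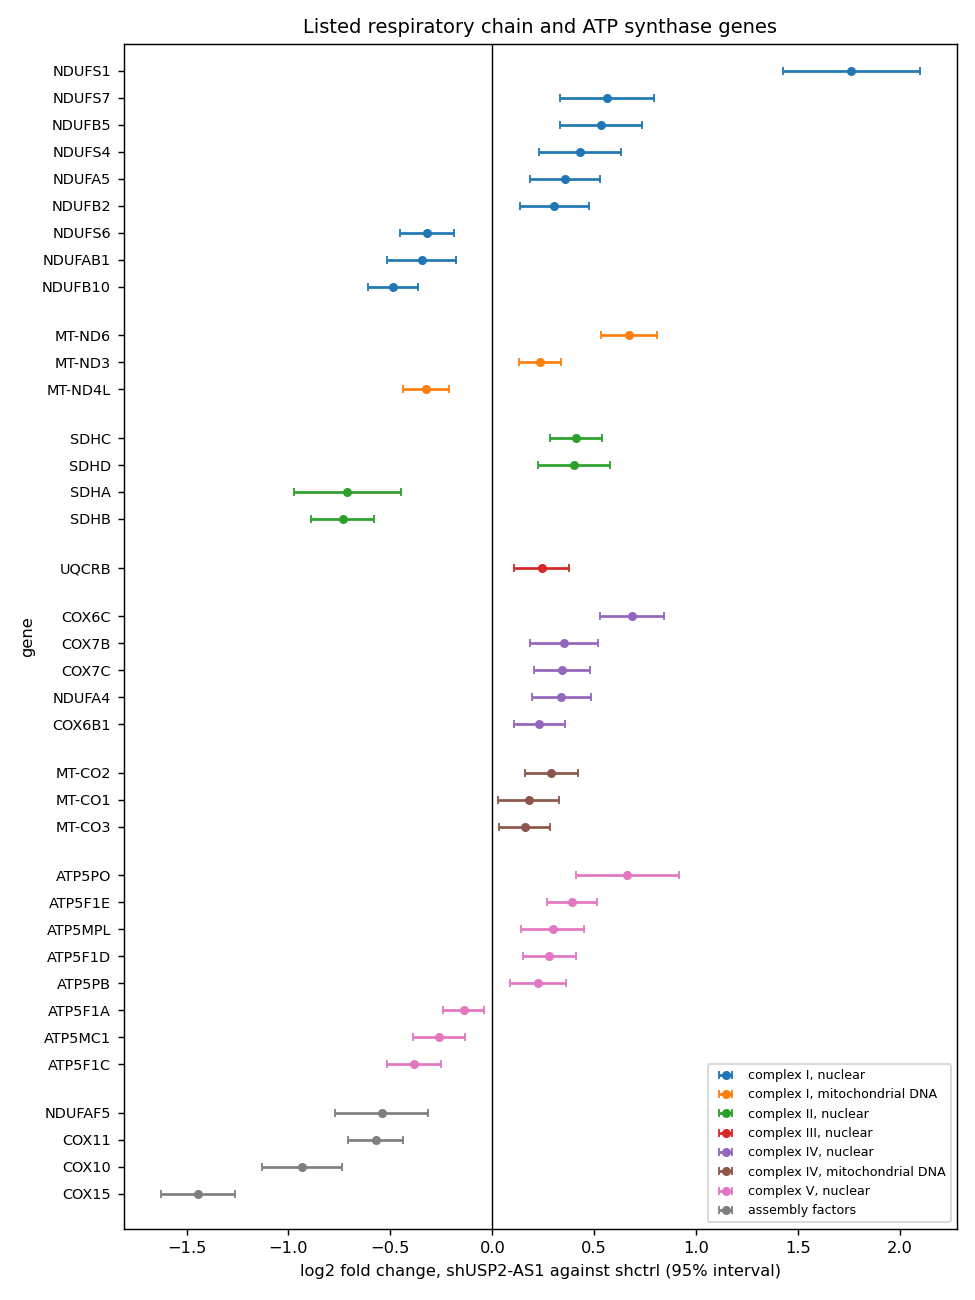
Log2 fold change of each of the 37 members (x axis, shUSP2-AS1 against shctrl, 2 libraries per group) with its 95% interval from limma, grouped by complex and genome. NDUFS1 lies farthest to the right at 1.76 and COX15 farthest to the left at -1.44, and the 4 assembly factors all lie below 0.

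The members are part of a longer list of 125 known subunits, tissue isoforms and assembly factors of complexes I to V, of which 39 were listed. The other 2 listed genes, CYC1 and DMAC2, have names that the rule does not reach. CYC1, the cytochrome c1 of complex III, fell by 0.50 on the log2 scale, and DMAC2, an assembly factor, fell by 0.23. Complex II was listed in full, with 4 of 4 subunits. Of the nuclear subunits, 9 of 37 were listed for complex I, 2 of 10 for complex III, 5 of 11 for complex IV and 8 of 18 for complex V. Of the 13 mitochondrially encoded subunits, 6 were listed, 3 of 7 for complex I and 3 of 3 for complex IV, but neither MT-CYB of complex III nor either of the 2 of complex V. None of the 7 tissue isoforms, such as COX4I2 and COX7A1, was listed.

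Promoter sequences are shown first for members whose transcripts moved apart within a complex or together within a pathway. SDHB and SDHD encode subunits of the same enzyme and moved in opposite directions, and COX10 and COX15 encode consecutive steps of heme A synthesis and both fell. The windows run 5′ to 3′ on the gene's strand from 250 bases before to 50 after the RefSeq start in GRCh38.p14. Capitals mark matches to 4 short motifs, searched on both strands, for the NRF1 core (GCGCATGCG), the ETS core (CCGGAAGT), the YY1 core (AAGATGGC) and the E-box (CACGTG). The windows lie at chr1:17053983-17054282 (minus strand), chr11:112086623-112086922 (plus strand), chr17:14069254-14069553 (plus strand) and chr10:99732078-99732377 (minus strand).
SDHB: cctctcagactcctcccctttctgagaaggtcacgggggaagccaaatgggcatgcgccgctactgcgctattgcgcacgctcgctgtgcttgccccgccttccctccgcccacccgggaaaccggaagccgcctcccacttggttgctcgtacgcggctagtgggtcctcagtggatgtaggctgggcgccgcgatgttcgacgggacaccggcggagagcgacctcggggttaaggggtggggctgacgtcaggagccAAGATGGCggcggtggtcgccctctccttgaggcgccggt
SDHD: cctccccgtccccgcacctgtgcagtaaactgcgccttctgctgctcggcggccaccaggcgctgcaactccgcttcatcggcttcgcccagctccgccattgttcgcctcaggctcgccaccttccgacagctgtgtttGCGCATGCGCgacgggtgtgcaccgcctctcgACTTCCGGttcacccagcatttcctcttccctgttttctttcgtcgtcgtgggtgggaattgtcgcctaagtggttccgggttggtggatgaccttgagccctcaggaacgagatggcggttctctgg
COX10: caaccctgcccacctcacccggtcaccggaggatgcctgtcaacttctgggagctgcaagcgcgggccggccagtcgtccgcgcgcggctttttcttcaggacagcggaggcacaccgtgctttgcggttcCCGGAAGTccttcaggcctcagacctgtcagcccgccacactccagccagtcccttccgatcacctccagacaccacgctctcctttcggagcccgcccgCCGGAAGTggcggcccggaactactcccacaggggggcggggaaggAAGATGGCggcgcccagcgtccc
COX15: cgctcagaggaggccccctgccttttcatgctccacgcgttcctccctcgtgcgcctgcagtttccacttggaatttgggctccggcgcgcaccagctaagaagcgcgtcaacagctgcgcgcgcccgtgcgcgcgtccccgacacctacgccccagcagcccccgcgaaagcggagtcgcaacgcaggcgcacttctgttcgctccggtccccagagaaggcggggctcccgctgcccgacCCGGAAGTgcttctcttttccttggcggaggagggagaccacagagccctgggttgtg

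The SDHB window held a YY1 core beside its start, and the SDHD window held an NRF1 core and an ETS core. In SDHD, the NRF1 core matched on both strands in overlapping positions, which together form the 10-base palindrome in capitals and count as 1 place. COX10 held ETS cores in 2 places and a YY1 core, and COX15 held an ETS core. RefSeq windows were matched by gene symbol for 24 of the 31 nuclear members. Of these, 5 (20.8%) held the NRF1 core, 4 (16.7%) the ETS core, 6 (25%) the YY1 core and 4 (16.7%) the E-box. Among all 35116 windows of the same length, the shares were 1.92%, 4.14%, 2.89% and 7.26%. Matches were found in members of both directions. The NRF1 core was found in 2 of the 13 matched members that rose and in 3 of the 11 that fell, and the YY1 core in 4 of 13 and 2 of 11. No match of one motif overlapped a match of another. A match is a description of the letters and not evidence of binding. The RefSeq start can also differ from the start of the gene as listed. The NDUFA5 window (chr7:123601602-123601901) lies outside that gene as listed (chr7:123536997-123557904), and the NDUFB2 window lies wholly inside its gene. Neither window held a match.

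Complex II, or succinate dehydrogenase, split into its catalytic and its membrane parts. SDHA and SDHB form the catalytic part that faces the matrix, and both fell. SDHC and SDHD anchor the enzyme in the membrane and hold the site for coenzyme Q, and both rose. SDHA (chr5:218241-257082), the flavoprotein that oxidizes succinate, had 297 and 262 normalized reads in shctrl and 171 and 168 in shUSP2-AS1. SDHB (chr1:17018722-17054032), the iron-sulfur subunit, had 1057 and 980.3 normalized reads in shctrl and 604 and 619 in shUSP2-AS1. Both knockdown libraries lay well below both control libraries. The log2 fold change was -0.71 for SDHA (SE 0.12, adjusted p = 3.93e-05) and -0.73 for SDHB (SE 0.07, adjusted p = 5.66e-08).

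SDHC (chr1:161314381-161371964) had 1605 and 1475 normalized reads in shctrl and 2031 and 2064 in shUSP2-AS1. SDHD (chr11:112086824-112120016) had 450.3 and 451 normalized reads in shctrl and 598 and 591 in shUSP2-AS1. For both anchors the knockdown libraries were the higher pair, by 0.41 on the log2 scale for SDHC (SE 0.06, adjusted p = 5.32e-06) and 0.40 for SDHD (SE 0.08, adjusted p = 0.000222). Within a library, the ratio of reads of 2 genes does not depend on how libraries are scaled. The pairs compared in this way were chosen with their directions known, so that the ratios describe the size of the shift and do not test it. The ratio of SDHB to SDHC reads was 0.659 and 0.665 in shctrl and 0.297 and 0.300 in shUSP2-AS1. The ratio of SDHA to SDHD reads was 0.659 and 0.580 in shctrl and 0.286 and 0.285 in shUSP2-AS1. Both ratios were lower in both knockdown libraries, although an exact two-sided permutation test of 2 against 2 libraries cannot go below p = 0.333. The summed normalized reads of the 4 genes, 3288 ± 171 in shctrl and 3423 ± 26.6 in shUSP2-AS1 (SD, n = 2), overlapped between the groups. In GENCODE release 44, SDHA has 4 named pseudogenes and shares 21.7% of its exon bases with another gene on its strand, and SDHD has 6 named pseudogenes and shares 11.4%. SDHC has 4 named pseudogenes and SDHB has 1, so that the reads of any of the 4 subunits may have been split. Of all members, 23 have named pseudogenes, with the most, 17, for COX6C, then 12 for NDUFA5.

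**Figure D2:**
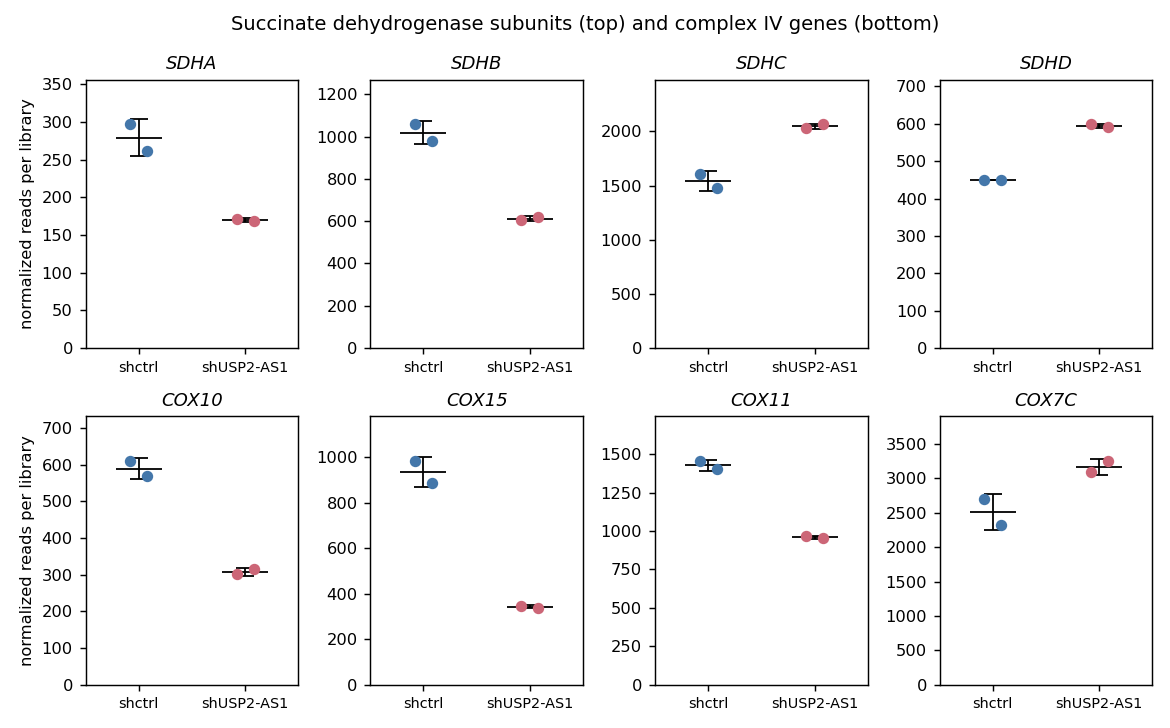
Normalized reads in each library (points, y axes starting at 0) with the group mean and SD (bars, n = 2) for the 4 subunits of succinate dehydrogenase and for 4 genes of complex IV. SDHA, SDHB, COX10, COX15 and COX11 were lower in both shUSP2-AS1 libraries, and SDHC, SDHD and the subunit gene COX7C were higher.

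Complex IV, or cytochrome c oxidase, showed a second contrast, between its subunits and the factors that fit its metal centers. All 8 listed subunits rose, of which COX6B1, MT-CO1 and MT-CO3 were not called with RLE scaling, and the 3 assembly factors among the members fell. Factors of this complex outside the name rule are given with the other assembly factors, and HIGD2A among them rose. Heme A, the heme of this enzyme, is made from heme B by COX10 and then COX15, and COX11 helps to deliver copper to the subunit encoded by MT-CO1. COX15 (chr10:99710868-99732127) had 983 and 887 normalized reads in shctrl and 347 and 338 in shUSP2-AS1, and fell by 1.44 on the log2 scale (SE 0.09, adjusted p = 5.03e-11). COX10 (chr17:14069490-14231736) had 609.7 and 569 normalized reads in shctrl and 301 and 316 in shUSP2-AS1, and fell by 0.93 (SE 0.09, adjusted p = 4.97e-08). COX11 (chr17:54951902-54968703) had 1454 and 1402 normalized reads in shctrl and 966 and 953 in shUSP2-AS1, and fell by 0.57 (SE 0.06, adjusted p = 1.93e-07). The groups stood apart by several times the spread between replicates in each of the 3.

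Apart from COX6C, which moved by more than COX11, the listed nuclear subunits of complex IV moved by less than these assembly factors. COX6C, a small subunit of the membrane domain, rose most, from 1198 and 1065 normalized reads in shctrl to 1698 and 1939.6 in shUSP2-AS1 (log2 fold change 0.68, SE 0.07, adjusted p = 1.38e-07). COX7B, COX7C and NDUFA4 rose by 0.35, 0.34 and 0.34 on the log2 scale, and by 0.23, 0.22 and 0.22 with RLE scaling. NDUFA4 bears a complex I name but is placed in complex IV. COX6B1, which sits on the side facing cytochrome c, rose by 0.23 (adjusted p = 0.00137), but was not called with RLE scaling (0.11) or by DESeq2. Without shctrl replicate 2, the rises of COX7B, NDUFA4 and COX6B1 were 0.22, 0.22 and 0.15. In these genes the shctrl libraries lay farther apart than the nearest libraries of the 2 groups. COX7B, for example, had 1418 and 1176 normalized reads in shctrl and 1563 and 1737 in shUSP2-AS1. All 5 nuclear subunits were lower in shctrl 2 than in shctrl 1 and higher in shUSP2-AS1 2 than in shUSP2-AS1 1. Their rises are therefore not 5 separate observations. The ratio of COX15 to COX7C reads went from 0.365 and 0.382 in shctrl to 0.112 and 0.104 in shUSP2-AS1. The ratio of COX10 to COX7C reads went from 0.226 and 0.245 to 0.0975 and 0.0973. Reads from overlapping genes bear on COX15, since the library protocol in the sample labels describes no step that marks strand. ENTPD7, on the opposite strand, shares 7.17% of the COX15 exon bases, and it rose from 479 and 531 normalized reads to 1599 and 1494. Another gene on the same strand shares 20.7%. TOM1L1, on the opposite strand of COX11, shares 13.7% of its exon bases, and an antisense RNA shares 11.8% of those of COX6C. The effect of these overlaps on the values was not tested.

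Complex I had 12 listed subunits, of which 8 rose and 4 fell, and 1 assembly factor among the members, which fell. NDUFS1 (chr2:206114817-206159509), the largest iron-sulfur subunit of the arm that takes electrons from NADH, changed most among all members. It had 152 and 182 normalized reads in shctrl and 452 and 709 in shUSP2-AS1, so that both knockdown libraries were higher but lay far apart. Its log2 fold change was 1.76 (SE 0.16, adjusted p = 1.34e-08), and it lay between 1.44 and 2.08 with any single library removed. An antisense RNA shares 11.6% of its exon bases. NDUFS7, another iron-sulfur subunit, had 313 and 262 normalized reads in shctrl and 412 and 435 in shUSP2-AS1, a rise of 0.56 on the log2 scale (SE 0.11, adjusted p = 0.000103). An antisense gene shares 36.1% of the exon bases of NDUFS7 and another shares 15.3%. If the libraries do not mark strand, their reads cannot be told apart from those of NDUFS7.

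The accessory subunits of complex I surround the catalytic core and were divided. NDUFB5, of the membrane arm, rose from 513 and 431 normalized reads to 645 and 718 (log2 fold change 0.53, SE 0.10, adjusted p = 4.89e-05). NDUFS4, NDUFA5 and NDUFB2 rose by 0.43, 0.36 and 0.30 on the log2 scale, and NDUFB2 was not called without shUSP2-AS1 replicate 2 (0.17) or by DESeq2 (0.19). BRAF, on the opposite strand, shares 27.9% of the NDUFB2 exon bases. NDUFB10, also of the membrane arm, fell from 1954 and 2015.5 normalized reads to 1393 and 1439 (log2 fold change -0.49, SE 0.06, adjusted p = 4.92e-07). NDUFAB1, which also serves as the acyl carrier protein of mitochondrial fatty acid synthesis, fell by 0.35, and NDUFS6, a zinc-binding subunit, fell by 0.32. NDUFAF5, an assembly factor that modifies NDUFS7, had 349 and 339.6 normalized reads in shctrl and 228 and 244 in shUSP2-AS1, and fell by 0.54 on the log2 scale (SE 0.11, adjusted p = 0.000145).

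Complex III was represented by UQCRB alone, a small accessory subunit. UQCRB had 1955 and 1749.6 normalized reads in shctrl and 2099 and 2277 in shUSP2-AS1, a rise of 0.24 on the log2 scale (SE 0.06, adjusted p = 0.00167) that was 0.12 and not called with RLE scaling or by DESeq2. CYC1, which passes electrons to cytochrome c, had 6246 and 5544 normalized reads in shctrl and 3974 and 4333 in shUSP2-AS1. The electron-carrying CYC1 was thus lower in both knockdown libraries while the accessory subunit UQCRB was higher.

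The ATP synthase had 8 listed subunits, of which 5 rose and 3 fell. The enzyme has a catalytic head, named F1, a ring of c subunits that turns in the membrane, a central stalk that turns with it and a peripheral stalk that holds the head still. The ring was represented by ATP5MC1, a gene for subunit c, which fell from 2963 and 2739.7 normalized reads to 2262 and 2491 (log2 fold change -0.26, SE 0.06, adjusted p = 0.000495). ATP5F1C, the gamma subunit of the central stalk, fell from 2621 and 2308 normalized reads to 1861 and 1911 (log2 fold change -0.38, SE 0.06, adjusted p = 1.95e-05). ATP5F1A, the alpha subunit of the head, fell by 0.14 (adjusted p = 0.00948), which was -0.26 with RLE scaling and was not called with upper quartile scaling (-0.0797) or without shUSP2-AS1 replicate 1 (-0.12). These 3 belong to the ring, the central stalk and the head, but 2 other subunits of the turning stalk moved the other way. ATP5F1E, the epsilon subunit, rose by 0.39 and ATP5F1D, the delta subunit, rose by 0.28, or 0.16 with RLE scaling. TUBB1, on the opposite strand, shares 23.2% of the ATP5F1E exon bases.

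ATP5PO, the part of the peripheral stalk that joins the head, rose most in complex V, from 189 and 176 normalized reads in shctrl to 293 and 285 in shUSP2-AS1 (log2 fold change 0.66, SE 0.12, adjusted p = 5.22e-05). Its exons share 15.5% of their bases with another gene on the same strand. ATP5PB, the b subunit of the same stalk, rose by 0.22, and ATP5MPL, a small membrane subunit now named ATP5MJ, rose by 0.30, or 0.18 with RLE scaling. ATP5PB was not called with RLE scaling (0.11), by DESeq2 or without shUSP2-AS1 replicate 2 (0.13), and DESeq2 did not call ATP5MPL or ATP5F1D. The ratio of ATP5F1C to ATP5F1E reads was 1.52 and 1.43 in shctrl and 0.849 and 0.878 in shUSP2-AS1. Over the 8 genes, the summed normalized reads were 17999.9 ± 642 in shctrl and 17726 ± 544 in shUSP2-AS1 (SD, n = 2), and the groups overlapped.

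The subunits encoded in mitochondrial DNA rose in 5 of 6 cases. Human mitochondrial DNA is transcribed from both strands as long precursors, which are then cut at the tRNAs between the genes. MT-CO1, the catalytic subunit of complex IV, had 315442 and 310071 normalized reads in shctrl and 354213 and 353204 in shUSP2-AS1, a rise of 0.18 on the log2 scale (SE 0.07, adjusted p = 0.0214). MT-CO2, which holds a copper center, rose from 100833 and 96623 normalized reads to 116045 and 125253 (log2 fold change 0.29, SE 0.06, adjusted p = 0.000267), or by 0.17 with RLE scaling. MT-CO3 rose by 0.16 (SE 0.06, adjusted p = 0.0160). For all 3, the higher pair was the knockdown pair. The calls of MT-CO1 and MT-CO3 were lost with RLE scaling (0.060 and 0.041) and by DESeq2 (0.062 and 0.043). The call of MT-CO1 was also lost without any single library (log2 fold change 0.17 to 0.19, adjusted p from 0.0524 to 0.236), and that of MT-CO3 without each library other than shUSP2-AS1 replicate 1 (0.13 to 0.17, adjusted p from 0.0955 to 0.15).

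The complex I genes of mitochondrial DNA did not move together. MT-ND3 rose from 10599.9 and 10808 normalized reads to 12265 and 12941 (log2 fold change 0.24, SE 0.05, adjusted p = 0.000199), or by 0.12 with RLE scaling. MT-ND6 had 9795 and 8186 normalized reads in shctrl and 14408 and 14116 in shUSP2-AS1, a rise of 0.67 (SE 0.06, adjusted p = 3.08e-08). It is the only protein-coding gene on the minus strand of the mitochondrial map. If the libraries do not mark strand, reads of the opposite strand cannot be told apart from its own. MT-ND4L, at 22908 and 23669.5 normalized reads in shctrl and 19401 and 17799.5 in shUSP2-AS1, was the only mitochondrially encoded member that fell (log2 fold change -0.33, SE 0.05, adjusted p = 1.71e-05). The ratio of MT-ND4L to MT-ND3 reads, from neighbouring genes of the same strand, was 2.16 and 2.19 in shctrl and 1.58 and 1.38 in shUSP2-AS1. The ratio of MT-ND6 to MT-CO1 reads was 0.0311 and 0.0264 in shctrl and 0.0407 and 0.0400 in shUSP2-AS1.

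MT-ND4L is read from the same mRNA as MT-ND4, which was not listed, and the pair share 7 bases. The junction is shown because reads that cover it belong to both genes. It runs along the plus strand at chrM:10737-10796, with the shared bases 10760 to 10766 in capitals.
MT-ND4L and MT-ND4: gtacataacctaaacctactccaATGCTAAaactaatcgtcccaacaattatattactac

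Both ribosomal RNAs of mitochondrial DNA rose, and 3 of 4 listed tRNAs rose with them. The ribosomal RNA MT-RNR2 went from 159708 and 166681 normalized reads in shctrl to 260844 and 257223 in shUSP2-AS1, and MT-RNR1 rose by 0.78 on the log2 scale (SE 0.05, adjusted p = 9.62e-11). The ratio of MT-RNR2 to MT-CO1 reads was 0.506 and 0.538 in shctrl and 0.736 and 0.728 in shUSP2-AS1. Of the 4 listed tRNA genes, MT-TC, MT-TN and MT-TP, all on the minus strand, rose by 0.73, 0.60 and 0.36. MT-TH, which follows MT-ND4 on the plus strand, fell by 0.74. The libraries were made with poly-A selection, and mature ribosomal and transfer RNAs carry short tails or none, so that these values do not give their true abundance. Together, the 6 coding members of mitochondrial DNA held 4.78% and 4.71% of the listed reads in shctrl and 5.15% and 5.21% in shUSP2-AS1, and their summed normalized reads had a ratio of 1.14. For the 31 nuclear members the ratio was 1.04, with sums of 45107 ± 2390 and 47080.5 ± 2180 (SD, n = 2) that overlapped.

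**Figure D3:**
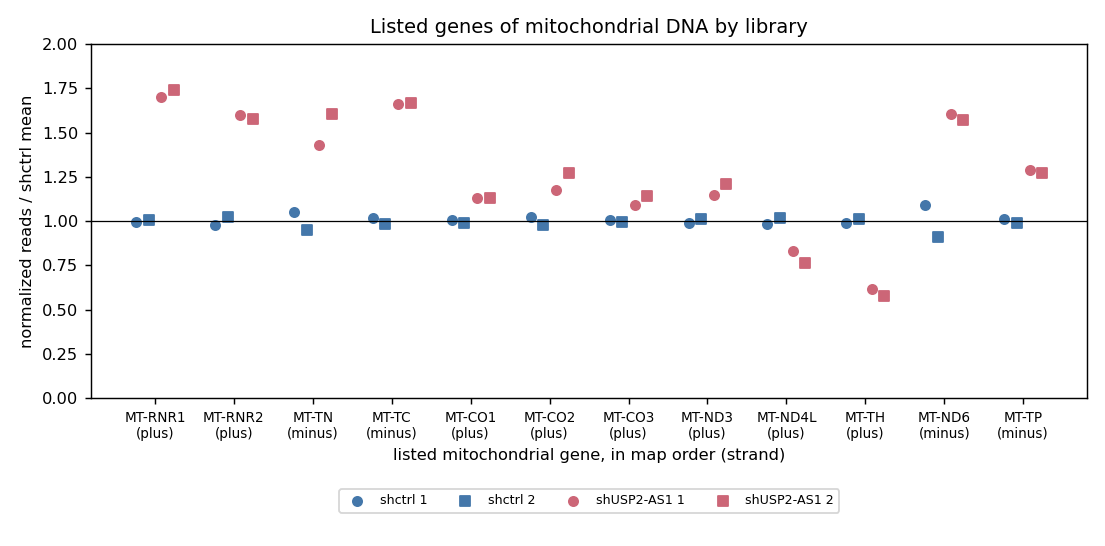
Normalized reads of the 12 listed genes of mitochondrial DNA in each library, divided by the mean of the shctrl libraries (y axis), in the order of the mitochondrial map with the strand of each gene. The shUSP2-AS1 libraries lie above the shctrl libraries for 10 genes and below them for MT-ND4L and MT-TH.

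Levels differed far more between members than between groups. Per kb of gene length, the mitochondrially encoded members had mean normalized reads from 17125 (MT-ND6) to 202825 (MT-CO1) in shctrl. The nuclear members had from 13.7 (NDUFS1) to 2854 (COX6B1). NDUFS1, the lowest of the members in shctrl at 13.7 normalized reads per kb, reached 47.7 in shUSP2-AS1, where SDHA became the lowest at 19.4. Gene length here is the summed length of all annotated exons, so that a gene with long alternative exons, such as NDUFS1, is placed lower than its main transcript would be. Every member had a mean value of at least 100, and the lowest count of any member in a library was 157 reads.

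**Figure D4:**
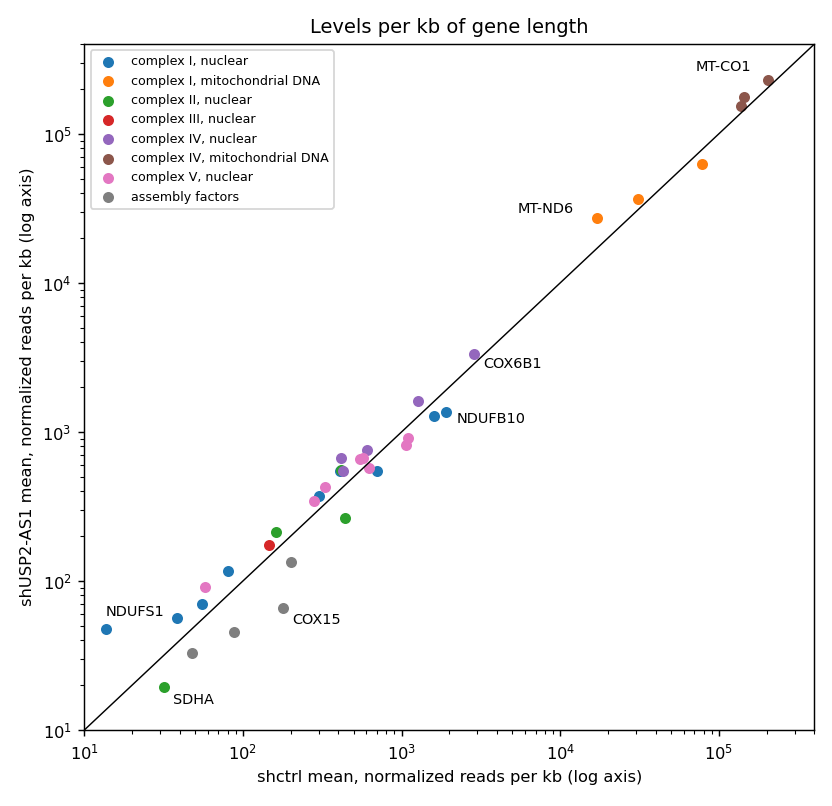
Mean normalized reads per kb of gene length in shctrl (x axis) and shUSP2-AS1 (y axis), both on log axes, for the 37 members, with the line of equal levels. NDUFS1 lies farthest above the line, and COX15, COX10, SDHB and SDHA lie farthest below it.

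Among genes that serve the chain without being members, most of those listed fell. Of 34 other assembly factors, 15 were listed, and 3 rose and 12 fell. COA4, a twin-cysteine protein needed for complex IV, had 1217 and 1204 normalized reads in shctrl and 443 and 491 in shUSP2-AS1, and fell by 1.37 on the log2 scale (SE 0.08, adjusted p = 2.62e-11). SCO1, which passes copper to the subunit encoded by MT-CO2, fell by 0.90, and ATPAF1, which helps to build the F1 head, fell by 0.86. The 3 that rose were HIGD2A, TTC19 and NUBPL. Of 14 genes for mobile carriers and coenzyme Q synthesis, 7 were listed, with 2 higher and 5 lower. COQ8A, a kinase-like protein of coenzyme Q synthesis, fell by 1.195, PDSS1, which makes the side chain, fell by 0.73, and COQ4 rose by 0.41.

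The nuclear genes that keep and express mitochondrial DNA fell wherever they were listed. Of 18 genes for replication and transcription, 11 were listed and 11 fell. TWNK, the helicase, fell from 1129.6 and 1096 normalized reads to 442 and 497 (log2 fold change -1.25, SE 0.08, adjusted p = 1.46e-10). POLRMT, the mitochondrial RNA polymerase, fell by 0.49 and LIG3, the DNA ligase, by 0.65. Of 18 genes for RNA processing and stability, 9 were listed and 9 fell. LRPPRC, which stabilizes mitochondrial mRNAs, fell from 6774 and 6808 normalized reads to 4444 and 4311 (log2 fold change -0.63, SE 0.05, adjusted p = 1.50e-09). ELAC2, which cuts the end of mitochondrial tRNAs, fell by 0.67, and PNPT1, a ribonuclease, fell by 0.63. The 33 listed mitochondrial ribosomal protein genes, with names beginning MRPL or MRPS, had 0 higher and 33 lower, with a median log2 fold change of -0.53. By count, the 33 subunits among the members had 24 higher and 9 lower, and CYC1, the listed subunit outside the name rule, was lower too. No test of the difference between these lists was made, and all are read against 49.4% lower among the genes tested.

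**Figure D5:**
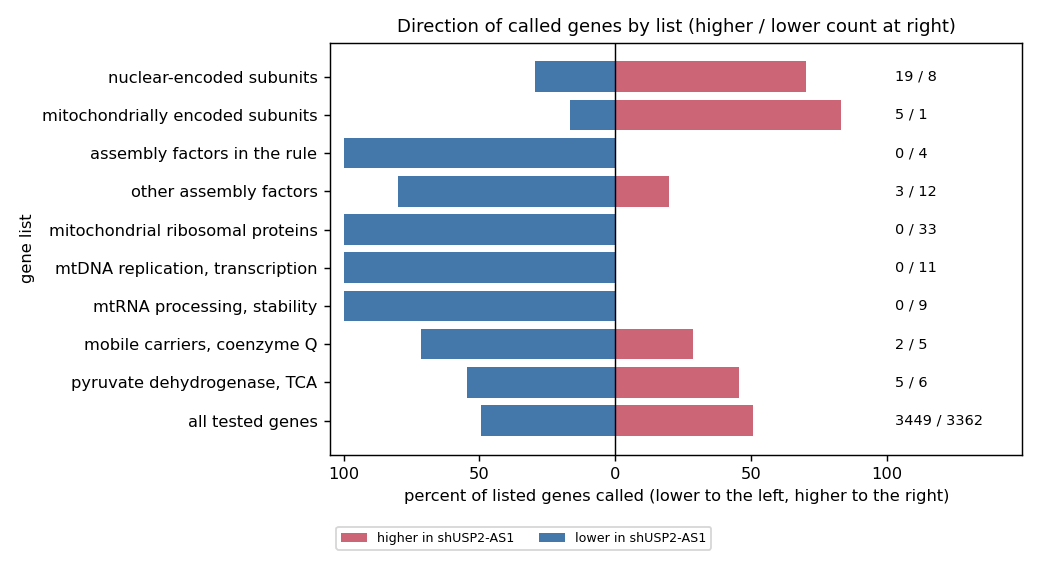
Percent of listed genes called higher (right) or lower (left) in shUSP2-AS1 for each list, with the counts at the right edge. The subunits among the members lean to the right in both genomes, with 19 of 27 and 5 of 6 higher, and the ribosomal protein, replication and RNA processing lists lie wholly to the left.

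Regulators and neighbouring pathways were mixed. Of 13 regulators of mitochondrial biogenesis, 6 were listed, with 1 higher and 5 lower. PPRC1, a coactivator related to PGC-1 alpha, fell from 2353 and 2353 normalized reads to 959 and 998 (log2 fold change -1.27, SE 0.06, adjusted p = 2.46e-12). SIRT1, a deacetylase, fell by 1.17, and MYC fell by 0.46. PPARA, a nuclear receptor that controls fatty acid oxidation genes, rose by 0.92. NRF1, whose motif was searched above, fell by 0.49, and GABPB1, a partner of the ETS factor GABPA, fell by 0.57. Of 23 genes of pyruvate dehydrogenase and the citric acid cycle, 11 were listed, with 5 higher and 6 lower. PDHA1 of pyruvate dehydrogenase fell by 0.57 and citrate synthase (CS) by 0.50, while DLD, the shared dehydrogenase of several complexes, rose by 0.55. Among carriers of adenine nucleotides and phosphate, 3 of 4 were listed. SLC25A5 fell by 0.61, whereas its relatives SLC25A6 and SLC25A4 rose by 0.29 and 0.43. These paralogs are close in sequence and their reads may have been split. The ratio of SLC25A5 to SLC25A6 reads was 0.757 and 0.754 in shctrl and 0.402 and 0.411 in shUSP2-AS1.

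Of 6 epithelial markers, which A549 cells carry as an epithelial line, 4 were listed, and EPCAM and CDH1 were not listed. KRT8 was the most abundant, with 87504 and 79777 normalized reads in shctrl and 48220.3 and 49976 in shUSP2-AS1. KRT18, KRT8 and KRT7 fell by 1.05, 0.77 and 0.49 on the log2 scale, and KRT19 rose by 0.75. Their summed normalized reads were 179244 and 168132 in shctrl and 106336 and 112823 in shUSP2-AS1. Of 8 markers of immune, endothelial and fibroblast cells, only COL1A1 was listed, with 261 and 293 normalized reads in shctrl and 530.0 and 618 in shUSP2-AS1. The other markers have unknown values. The part of these shifts in the values of the members was not tested, and in bulk RNA fewer cells with a transcript and less of it per cell cannot be told apart.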

How the data were processed

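The authors had poly-A libraries sequenced by a company. The submitters' processing notes name HISAT2 2.0.5, featureCounts 1.5.0-p3, DESeq2 1.20.0 and the build hg38. The deposited values are a normalized signal, read counts divided by a size factor per library, for 6828 genes, beside a gene length in bases. The authors' columns of fold change and p-value did not enter the fits. Their adjusted p was read only to check that it lay below 0.05 for every listed gene. Columns headed scr and sh216 were taken as shctrl and shUSP2-AS1, since the comparison has only these groups. No columns of other samples were present. Dividing by the value of 1 read gave whole reads (within 0.01) for 100% of values. These sums cover listed genes and not whole libraries.

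Genes whose mean value reached 10 (6812 genes) were fitted by group as log2(value + 1) with limma 3.58.1 (R 4.3.3, trend), with Benjamini-Hochberg adjustment over all of them and a threshold of 0.05. Fold changes are on this scale. Because listing required an adjusted p below 0.05 in the same comparison, adjusted p-values here are too small to serve as independent evidence. Replicates differed by more than sampling noise (chi-square per degree of freedom 3.75 and 3.84). The p-values measure only the spread between 2 libraries per group, which limma moves towards a trend over all the genes fitted. The SE and p-value of a gene therefore do not reflect its own libraries alone, and the trend comes from selected genes. edgeR 4.0.16 and DESeq2 1.42.0 on recovered reads, other scalings, filters and pseudocounts, and leaving out each library were alternatives. The other scalings and DESeq2 took their size factors from the listed genes alone, and edgeR kept those of the authors. The fits were tested on simulated data. Overlaps and pseudogenes were taken from GENCODE release 44, and promoters from RefSeq. Members, lists and tests were chosen with earlier results of these data known. Within each complex, the 3 largest and 3 smallest changes were named by rule, with all of complex II and of mitochondrial DNA, and the 3 genes of lowest p in each other list. NDUFS4, NDUFA5, NDUFB2, ATP5F1D, ATP5PB, HIGD2A, TTC19, NUBPL, PPARA, NRF1, GABPB1, KRT7, CYC1, DMAC2 and ENTPD7 were named after their values were seen.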

Additional observations from a re-analysis of the deposited data

How the results depend on the processing

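None of the 37 members reversed direction under any of the 14 alternatives, and 28 kept their call under each of them. The other 9 (MT-CO1, MT-CO3, UQCRB, COX6B1, ATP5PB, NDUFB2, ATP5MPL, ATP5F1D and ATP5F1A) lost it under at least 1. The 25 other genes run under the alternatives lost no call. The groups did not overlap in any of the 37 members. Alternatives that kept the reported scaling, such as leaving out a library, thus cannot reverse a member. Only the other scalings and DESeq2 tested the direction. There, MT-CO3 was 0.041 with RLE scaling and 0.043 with DESeq2, and ATP5F1A was -0.0797 with upper quartile scaling. The cause of the changes in calls was not tested.

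Median log2 fold changes kept their sign. With RLE scaling they were 0.19 for the nuclear and 0.088 for the mitochondrially encoded subunits, and by complex 0.24 (I, nuclear), 0.12 (I, mitochondrial), -0.27 (II), 0.12 (III), 0.22 (IV, nuclear), 0.060 (IV, mitochondrial) and 0.13 (V). DESeq2 gave 0.19 for the nuclear and 0.091 for the mitochondrially encoded subunits, and 0.25 (I, nuclear), 0.12 (I, mitochondrial), -0.27 (II), 0.12 (III), 0.22 (IV, nuclear), 0.062 (IV, mitochondrial) and 0.14 (V). Upper quartile scaling gave 0.27 for the mitochondrially encoded subunits, 0.30 (I, mitochondrial), -0.0957 (II), 0.24 (IV, mitochondrial) and 0.31 (V). Scaling to the sum of nuclear genes gave 0.17 for the mitochondrially encoded subunits, 0.20 (I, mitochondrial) and 0.14 (IV, mitochondrial). Leaving out each library in turn gave 20 to 23 members higher and 12 to 13 lower. The medians then ranged from 0.19 to 0.23 for the mitochondrially encoded subunits, from 0.20 to 0.27 for those of complex I, from -0.22 to -0.11 for complex II, from 0.22 (without shctrl replicate 2) to 0.45 for the nuclear subunits of complex IV and from 0.18 to 0.29 for complex V. With 1 library left in a group, that library was assumed to vary like the other group. The median of all genes tested, 0.19, fell to -0.16 where at least 10 reads were required in every library. No gene tested had an absolute log2 fold change under 0.1, and a median between the higher and the lower genes is unstable for this reason.

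With the replicate block, 22 members were higher and 13 lower, as MT-CO1 and MT-CO3 lost their calls. The replicate numbers did not pair the libraries (correlation of the replicate differences -0.04).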
